A study of Homo sapiens with 8 samples.

Results

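RAB proteins are small GTPases that mark membranes of the endocytic and secretory pathways. Each RAB is switched on by an exchange factor, recruits effectors that tether, move or fuse vesicles at its own compartment, and is switched off by a GTPase-activating protein. In myeloid cells they carry cargo between endosomes, phagosomes, lysosomes, the Golgi and secretory granules. The promoters of these genes were described here as sites of PML::RARA, the fusion of PML with the retinoic acid receptor RARA that drives acute promyelocytic leukemia.

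The peaks came from Cut&Run, in which a nuclease brought to an antibody releases the DNA around the bound protein. The cells were U937-PR9, a monocytic line in which zinc switches on a PML::RARA transgene. Induction used 100 μM ZnSO4 for 5 h and uninduced cells were given water. Libraries were made with an antibody to PML::RARA or to RARA, 2 replicates for each antibody and condition and 8 in all. The values below are from 1 list of reproducible peaks, that of induced cells with the PML::RARA antibody, and all come from 1 cell line. Every induced library received zinc, so an effect of zinc and one of PML::RARA cannot be told apart, and neither uninduced cells nor the RARA antibody were analysed here.

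Of the 15412 peaks in this list, 7169 carried a gene symbol. Symbols had been assigned upstream where the apex of a peak lay in a promoter. A peak was counted as a RAB peak when its symbol was RAB followed by a number and an optional letter, or began with RAB3, RAB11FIP, RABGAP, RABEP or RABGEF. This gave 45 peaks on 19 chromosomes, or 0.628% of the labelled peaks, and they named 41 genes. The GTPases themselves accounted for 34 peaks of 32 genes, and their regulators and effectors for 11 peaks of 9 genes. The other 7124 labelled peaks, with 6505 gene symbols, served as the background. For each peak the list gives a width and a height, the height being the largest signal within the peak in arbitrary units. Each peak has a single height and width rather than values for each replicate, which leaves replicate error unknown, and no test was made. It is not known whether that height is of 1 replicate, a mean or pooled reads. Depth is unknown, the intervals of shares are Wilson 95% intervals that cover the counting of peaks or genes only, and the cell type could not be checked because the list holds no expression values.

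The 4 highest RAB peaks lay at RAB5B, RAB1A, RAB10 and RAB8A. The DNA just upstream of these start sites is shown first because they had the strongest signal among peaks with a RAB symbol. Stretches of 120 bases of GRCh37 (the assembly of hg19) are given 5′ to 3′ on the strand of the gene, each taken as close to the canonical start as annotated exons allowed. RAB5B lies at chr12:56367577-56367696 (plus strand), RAB1A at chr2:65357466-65357585 (minus), RAB10 at chr2:26256833-26256952 (plus) and RAB8A at chr19:16222579-16222698 (plus). For contrast, RAB7A (chr3:128444859-128444978, plus) had a peak of low height and RAB9A (chrX:13707127-13707246, plus) had none. Capitals mark matches on either strand to the SP/KLF core GGGCGG, to the ETS core GGAAGT or to the NF-Y core CCAAT.
RAB5B: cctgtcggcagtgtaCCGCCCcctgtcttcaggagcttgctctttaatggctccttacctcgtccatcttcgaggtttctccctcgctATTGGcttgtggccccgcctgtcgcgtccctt
RAB1A: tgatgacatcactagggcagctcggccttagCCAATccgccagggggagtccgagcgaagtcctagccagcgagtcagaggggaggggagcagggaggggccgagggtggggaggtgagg
RAB10: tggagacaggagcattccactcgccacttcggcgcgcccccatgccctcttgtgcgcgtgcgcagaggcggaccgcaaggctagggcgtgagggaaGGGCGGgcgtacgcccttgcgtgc
RAB8A: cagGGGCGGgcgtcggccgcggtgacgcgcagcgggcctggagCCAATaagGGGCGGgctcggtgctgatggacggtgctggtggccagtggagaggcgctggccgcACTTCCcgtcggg
RAB7A: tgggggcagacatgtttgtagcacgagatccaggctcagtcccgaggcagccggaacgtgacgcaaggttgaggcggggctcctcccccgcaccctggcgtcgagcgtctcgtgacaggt
RAB9A: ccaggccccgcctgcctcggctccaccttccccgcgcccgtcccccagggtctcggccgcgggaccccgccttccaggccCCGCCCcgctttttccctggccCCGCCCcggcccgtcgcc

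These cores were present with and without a peak. RAB8A holds a match to each of the 3 cores, RAB9A holds matches to GGGCGG without a peak, and RAB7A holds none of them within its 120 bases. Within 200 bp of the RAB7A apex, however, there were 2 matches to GGAAGT and 1 to GGGCGG.

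More than the background share of RAB genes carried a promoter peak. Of the 77 RAB genes that GENCODE annotates as protein-coding, 41 were named by a peak, a share of 53.2% (95% interval 42.2 to 64.0%), against 29.9% of all 20136 protein-coding genes. Counted without the authors' symbols, by an apex within 1 kb of any annotated start site of the gene, the share was 58.4% (45 of 77 genes, interval 47.3 to 68.8%), against 39.2%. Start sites rich in CpG were also more common among the RAB genes. In the 250 bp on each side of the canonical start, 68 of the 77 (88.3%) had at least 50% GC and a CpG observed to expected ratio of at least 0.6, whereas 67.1% of all protein-coding genes did. Among genes with such start sites, 40 of 68 RAB genes were named by a peak (58.8%, interval 47.0 to 69.7%), against 39.8% of 13514 genes. Without a CpG-rich start the shares were 11.1% (1 of 9 RAB genes) and 9.74%. At this single cut of CpG content, applied after seeing the data, the RAB share by label was also above the background share. Whether CpG content accounts for the gap was not tested. RAB44, a large RAB of leukocyte granules, was the 1 labelled gene whose start site was poor in CpG, with a ratio of 0.158.

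**Figure D1:**
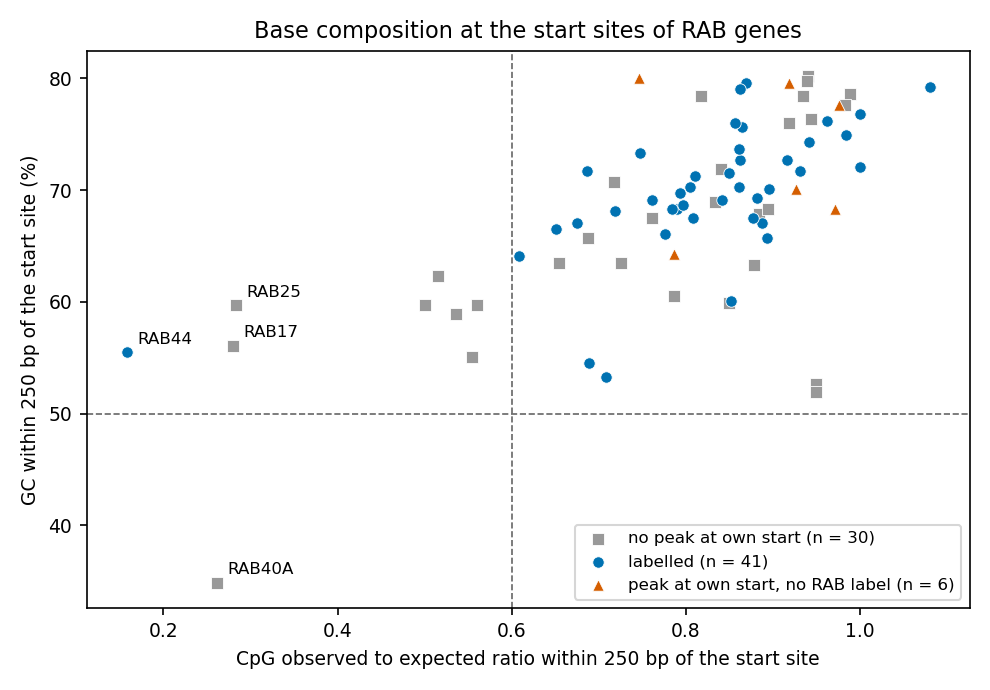
Base composition at the canonical start sites of 77 RAB genes, with the CpG observed to expected ratio on the x axis and the GC percentage on the y axis, both within 250 bp of the start. Dashed lines mark a ratio of 0.6 and 50% GC; 40 of the 41 labelled genes lie above both limits, and so do 22 of the 30 genes without a peak at their start.

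Genes of RAB regulation outside the rule had an intermediate share when pooled, with an interval that overlapped that of the RAB genes. Of 133 annotated genes of RAB regulation and function outside the rule, 59 were named by a peak (44.4%, interval 36.2 to 52.8%), against 29.9% of all protein-coding genes. A CpG-rich start was found in 86.5% of the 133. Of all genes with such starts 39.8% were named, a share within that interval. The DENN domain exchange factors, which load RABs with GTP, had 11 of 18 named (61.1%), and DENND4A had their highest peak at 49. The TBC domain proteins, which switch RABs off, had 17 of 35 (48.6%), with TBC1D10B reaching 81 over 3357 bp. The intervals of the DENN and TBC shares, 38.6 to 79.7% and 33.0 to 64.4%, also included 39.8%. By an apex within 1 kb of an own start the shares were 66.7% for the DENN genes and 68.6% for the TBC genes, against 39.2% of all genes and 58.4% of the RAB genes. Effectors had 21 of 52 (40.4%), with EHBP1L1 at 53, other exchange factors 5 of 14 (35.7%), with MON1B at 28, and the RAB-like genes 2 of 6 (33.3%), with IFT27 at 53. Among genes of RAB prenylation and membrane extraction 3 of 8 were named (37.5%), with RABIF at 33. The interval of the effector share, from 28.2 to 53.9%, included the 29.9% of all genes. So did those of the last 3 shares. These were 9.68 to 70.0% for the RAB-like genes, 13.7 to 69.4% for prenylation and 16.3 to 61.2% for other exchange factors. Among other small GTPases, the ARF and ARL genes had 13 of 31 named (41.9%, interval 26.4 to 59.2%), with ARF4 highest at 54, and the RAS, RAP and RAL genes 14 of 35 (interval 25.6 to 56.4%), with RRAS highest at 64. Both intervals overlapped that of the RAB genes and also included the 29.9% of all genes and the 39.8% of genes with CpG-rich starts. A CpG-rich start was found in 87.1% of the ARF and ARL genes and in 88.6% of the RAS, RAP and RAL genes. Counted by an apex within 1 kb of an own start, the ARF and ARL share was 58.1%, close to the 58.4% of the RAB genes. The RAS, RAP and RAL genes again had 14 of 35 by that measure, near the 39.2% of all genes.

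By role, the labelled genes were spread over nearly every compartment, where 29.9% of all protein-coding genes, and 39.8% of those with CpG-rich starts, were named by a peak. A label was found for 11 of 18 RABs of the ER and Golgi and their regulators, for 7 of 13 of the early endosome and for 8 of 17 of recycling and polarised exocytosis. The late endosome and lysosome had 5 of 11, regulated secretion 5 of 9 and the RAB40 family 2 of 3. Both RABGAP genes were labelled, as was 1 of 2 RABs of the cilium. RAB19 and RAB42, placed in no compartment, had no peak at a start. The groups are small, and each gene was placed in 1 group although many RABs act at several membranes.

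**Figure D2:**
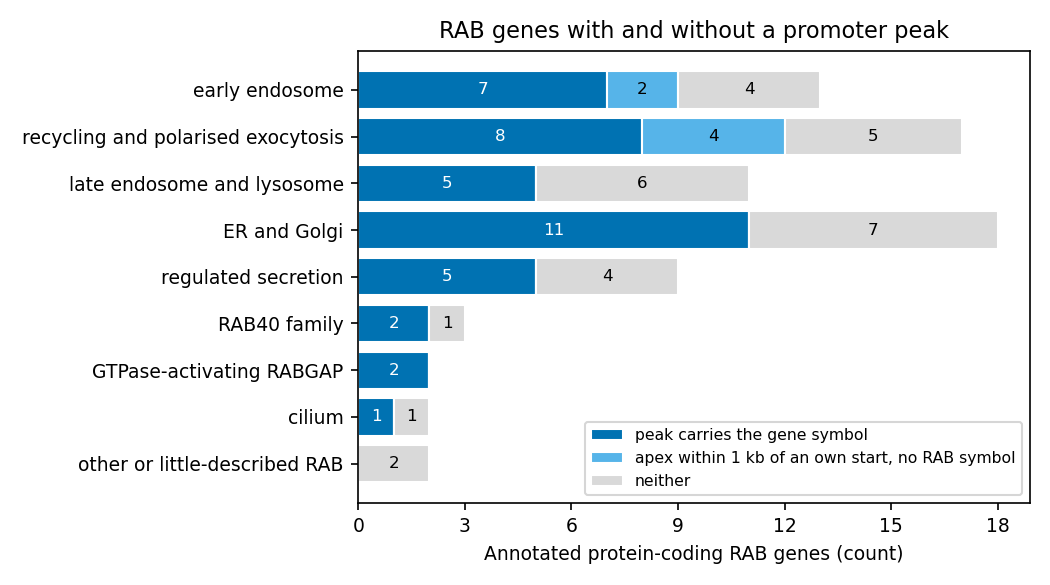
Number of annotated protein-coding RAB genes by role (x axis, count of genes), split into genes named by a peak, genes with an apex within 1 kb of an own start but no RAB symbol, and genes with neither. The ER and Golgi group has 11 labelled genes of 18, and the 6 genes with an unlabelled or differently labelled start lie in the early endosome and recycling groups.

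RAB promoter peaks were of ordinary height and width as a set. Their median height was 31 (quartiles 21 and 40), against 26 (20 and 35) in the background. This gap in medians did not extend to the counts. A height at or above the background median was reached by 24 of the 45 peaks (53.3%, interval 39.1 to 67.1%), against 52.3% of the background. Only 1 RAB peak, RABEP2 at 26, had a height above 25 and below 31, with 21 at 25 or lower and 23 at 31 or higher, so that the median fell at the edge of a gap. The 4 peaks on chromosome 19, at RAB3D, RAB3A, RAB4B and RAB8A, had heights of 33, 43, 49 and 57, where the median of the other labelled peaks of that chromosome was 30. Without chromosome 19, a comparison added after seeing the data, the medians were 25 and 26 and the share was 48.8%. The 90th percentile of background heights, 44, was reached by 7 of 45 RAB peaks (15.6%, interval 7.75 to 28.8%), against 10.4%. Width behaved alike. The background median of 1108 bp was reached by 25 of 45 (55.6%, interval 41.2 to 69.1%), against 50.0%, and the 90th percentile of width by 4 of 45 (8.89%), against 10.0%. On the log2 scale the mean height was 0.11 higher in RAB peaks than in the background (SD 0.57 and 0.50 over peaks), and the mean width was also 0.11 higher (SD 0.66 and 0.81), both smaller than the spread between peaks.

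**Figure D3:**
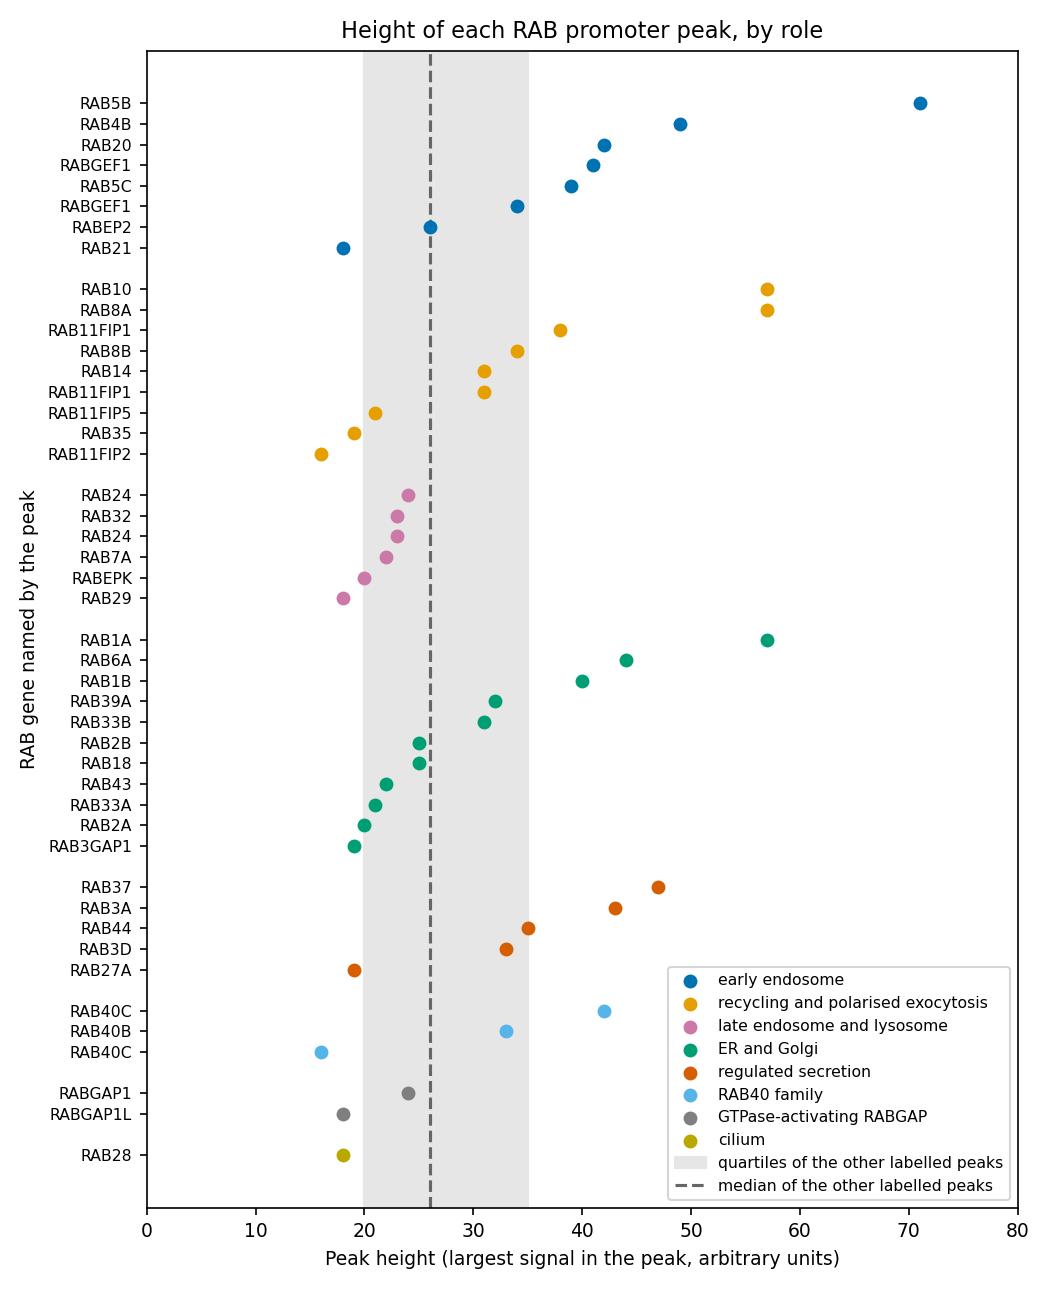
Height of each of the 45 RAB promoter peaks (x axis, arbitrary units), grouped and coloured by role, with the median of 26 and the quartiles of the other 7124 labelled peaks as a dashed line and a grey band. Early endosome genes lie mostly to the right of the median, and all 6 late endosome and lysosome peaks to its left.

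Of the role groups, the early endosome RABs had the highest median height, 40 over 8 peaks, and included the highest peak. RAB5B (ENSG00000111540), one of the RAB5 forms that drive fusion of early endosomes, had a height of 71, above 99.8% of all peaks in the list. This peak, on chromosome 12 from 56366745 to 56368490, was 1746 bp wide, and its apex lay 1 bp from an annotated RAB5B start and 164 bp upstream of the canonical one. RAB4B, which returns receptors quickly to the surface, reached 49 with a wide peak of 2217 bp, whose apex lay 713 bp upstream of its start and 709 bp from the start of another gene, MIA. RAB20, found on phagosomes, reached 42, and RAB5C reached 39. RABGEF1, the RAB5 exchange factor, carried 2 labelled peaks with heights of 41 and 34. Only the first lay at its own start, 165 bp upstream. The second, 1633 bp wide, had its apex 17 bp from the start of KCTD7 and 53300 bp from the nearest RABGEF1 start. RABEP2, an effector of RAB5, had a height of 26 and RAB21 one of 18. In this group 7 of 8 peaks were at or above the background median height, against 52.3%. The RABGEF1 peak at KCTD7 is among these 7, and peaks at RAB starts under another symbol were left out.

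RAB5A, the remaining RAB5 gene, was named by no peak. A peak labelled EFHB, on chromosome 3 from 19987957 to 19989344, had its apex in the 5′ UTR of RAB5A, 28 bp downstream of the start, with a height of 29. RAB22A, a close relative of RAB5, likewise had a peak of height 19 with its apex 1 bp from its start, under the symbol PPP4R1L. All 3 RAB5 genes therefore had a peak at an own start site, with heights of 71, 39 and 29. RAB4A differed from RAB4B, since the apex nearest to a RAB4A start lay 55826 bp away.

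RABs that move vesicles to the plasma membrane also included high peaks. RAB10 and RAB8A, which act in exocytosis and ciliary and basolateral transport, both reached 57, higher than 98.2% of the list. RAB10 (chromosome 2, 26256003 to 26257667) was 1665 bp wide and peaked 90 bp upstream of the start, and RAB8A (chromosome 19, 16221972 to 16223133) was 1162 bp wide with its apex 245 bp upstream. RAB8B, the paralog of RAB8A, had a height of 34, and RAB14, of the Golgi and endosomes, one of 31. Effectors of RAB11 lay on both sides of the background median. RAB11FIP1 had 2 neighbouring peaks of 38 and 31, while RAB11FIP5 had a height of 21 and RAB11FIP2 one of 16, which is higher than only 0.13% of all peaks. RAB35, a RAB of fast recycling, had a height of 19. The RAB11FIP5 peak was low and wide, 2259 bp, with its apex in intron 1, 1284 bp downstream of the start.

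Neither RAB11A nor RAB11B, the central RABs of the recycling endosome, was named by a peak, yet both had one at the start site. The RAB11B peak (chromosome 19, 8454619 to 8456130) was labelled MIR4999, and with a height of 59 it was higher than the labelled peaks of all RAB genes but RAB5B. Its apex lay 137 bp upstream of the RAB11B start. At RAB11A 2 apexes lay within 1 kb of an annotated start. The peak nearest to a start had no symbol (chromosome 15, 66161329 to 66163018) and reached 28. Its apex was in the 5′ UTR, 31 bp downstream of the canonical start. Unlabelled peaks of low height also lay 92 bp upstream of RAB3IP, an exchange factor of RAB8, with a height of 17, and 137 bp from an alternative start of RAB3IL1 in intron 9 of its canonical transcript, with a height of 16. With RAB5A and RAB22A, these made 6 genes with a peak at an own start and no RAB symbol.

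Late endosome and lysosome RABs had low peaks throughout. Their 6 labelled peaks had heights of 18 to 24, and 0 of 6 reached the background median of 26, against 52.3% in the background. RAB7A (ENSG00000075785), which brings late endosomes to fusion with lysosomes, reached 22 over 1236 bp and peaked 57 bp upstream of a start. RAB24, linked to autophagy, had 2 neighbouring peaks of 24 and 23, the first with its apex 52 bp upstream of RAB24 and 3 bp from the start of PRELID1. The second did not cover a RAB24 start, and its apex lay 793 bp upstream of RAB24 and 151 bp from the PRELID1 start. RAB32, of lysosome-related organelles, had a height of 23, RABEPK, an effector of RAB9, one of 20, and RAB29, a RAB that works with the kinase LRRK2, one of 18. These peaks were low but not narrow, with a median width of 1111.5 bp. RAB9A and RAB9B, RAB12, RAB34, RAB36 and RAB38 had no apex within 1 kb of a start, the nearest being 1396 bp away at RAB34.

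At the ER and Golgi the heights spanned 19 to 57. RAB1A, which directs vesicles from the ER to the Golgi, had a height of 57 (chromosome 2, 65356196 to 65358250, 2055 bp wide) and peaked 20 bp upstream of a start. Its paralog RAB1B reached 40 with a width of 2400 bp, the second widest of the RAB peaks. RAB6A, of retrograde transport through the Golgi, reached 44 in a peak of only 800 bp, whereas RAB6B, RAB6C and RAB6D had no peak at their starts. RAB39A had a height of 32 and RAB33B one of 31, above the background median, while RAB33A was at 21 with its apex 934 bp upstream. RAB2B, RAB18, RAB43, RAB2A and RAB3GAP1 had heights of 25, 25, 22, 20 and 19. RAB18 acts at lipid droplets and the ER, and RAB3GAP1 belongs to the complex that activates it.

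Among RABs of regulated secretion, the widest RAB peak was at RAB37, a RAB of secretory granules. It was 2788 bp wide (chromosome 17, 72732321 to 72735108), more than 98.1% of all peaks, with a height of 47, and had the largest total signal of the RAB peaks, at 45908. Its apex lay in intron 1, 1128 bp downstream of the nearest start. RAB3A, known from synaptic vesicles, had a height of 43, RAB44 one of 35 and RAB3D, of secretory granules, one of 33. RAB27A, which docks granules of leukocytes for release, had a low but wide peak that reached 19 over 1779 bp, its apex 425 bp upstream of the start. RAB3B, RAB3C and RAB27B, known mainly from neurons, endocrine and epithelial cells, and RAB26 had no apex at a start. In this group 4 of 5 peaks reached the background median height, against 52.3% of background peaks.

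The remaining labelled genes had low or middling peaks, apart from RAB40C. RAB40C, a RAB that joins cullin ubiquitin ligases, had a peak of 42 with a width of 1844 bp and beside it the narrowest RAB peak, 331 bp wide with a height of 16. RAB40B had a height of 33. The GTPase-activating proteins RABGAP1 and RABGAP1L had heights of 24 and 18, and the ciliary RAB28 one of 18.

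**Figure D4:**
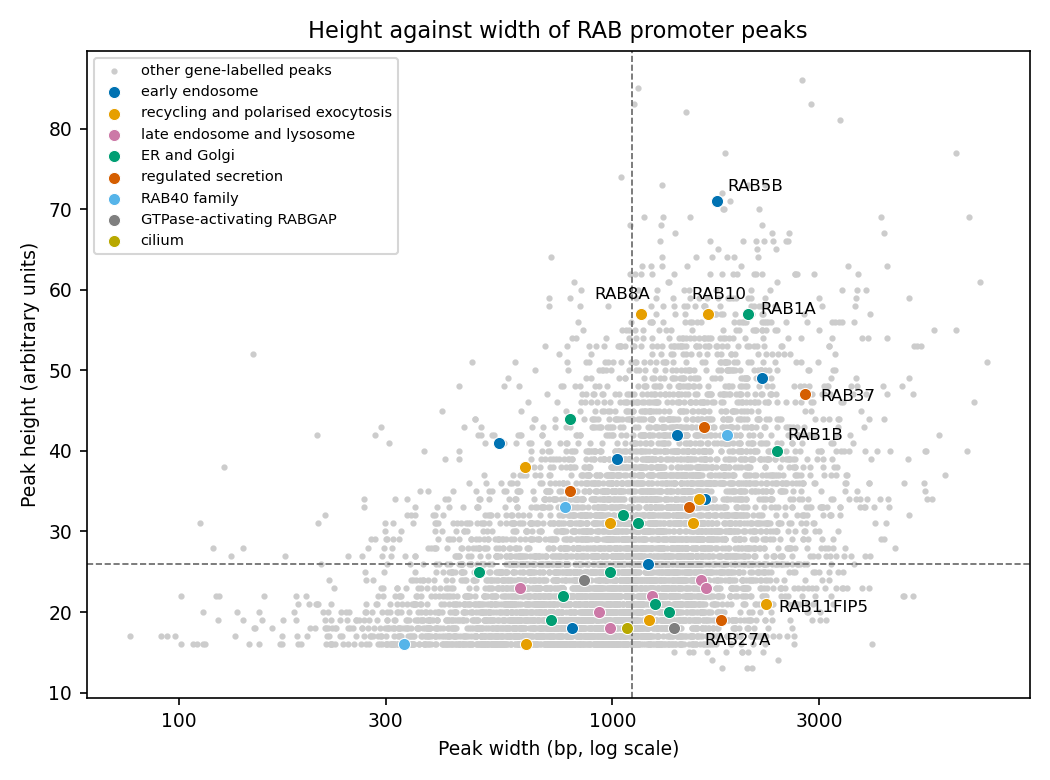
Height (y axis, arbitrary units) against width (x axis, bp, log scale) of the 45 RAB promoter peaks, coloured by role, over the other 7124 labelled peaks in grey. Dashed lines mark the background medians of 26 and 1108 bp; RAB5B stands highest at 71, and RAB37 is the widest at 2788 bp.

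Paralogs with almost the same function therefore differed in the list. RAB5B stood above RAB5A, at 71 against 29, and RAB11B at 59 stood above the peak nearest to a RAB11A start, at 28. The RAB11A gene was also overlapped, upstream of its canonical start, by higher peaks of 49, labelled DENND4A, and 38, without a symbol. RAB1A and RAB1B were at 57 and 40, RAB8A and RAB8B at 57 and 34, and RAB2B and RAB2A at 25 and 20. RAB27A, RAB4B and RAB6A had a peak at the start, and RAB27B, RAB4A and RAB6B had none there. With 1 value per peak, none of these differences has an error.

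Most RAB peaks lay at the start of the gene, as in the background. The apex was within 1 kb of an own start in 91.1% of RAB peaks, against 93.2%, and upstream of the nearest own start in 36 of 45 (interval 66.2 to 89.1%), against 75.5%. The peak covered the nearest annotated start in 39 of 45 cases, and the apex was upstream of the canonical start in 41 and in intron 1 in 3. No background share was set beside these counts, which therefore describe the RAB peaks only. The distance from the apex to the nearest own start had a median of 142 bp, against 99 bp for 6566 background peaks whose symbol matched a protein-coding gene. The apex lay within 100 bp of a start in 42.2% of RAB peaks (19 of 45, interval 29.0 to 56.7%), against 50.5%. It lay more than 1 kb away for RAB37, RAB11FIP5, the narrow RAB40C peak and the RABGEF1 peak at KCTD7. Another protein-coding gene began within 1 kb of the apex at 8 of 45 peaks (17.8%, interval 9.29 to 31.3%) and at 1248 of 6566 background peaks, among them TOX4 at RAB2B, SLC35F2 at RAB39A and PMEL at RAB5B. The background share lay within that interval. Only 4 of the 41 genes had more than 1 labelled peak (9.76%), against 8.41%.

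Inside the genes, 44 further peaks overlapped RAB genes without carrying their symbol, in 23 genes. Of these 36 had no symbol and 8 the symbol of another gene. No share of other genes was set beside these counts, which describe the RAB genes only. The 25 that had no symbol and lay in an intron of the canonical transcript had a median height of 24 and a median width of 617 bp, close to the 23 and 634 bp of all unlabelled peaks in the list. RAB20 stood apart, since a peak in its intron 1, 25247 bp downstream of the start (chromosome 13, 111188202 to 111189065), reached 68, above 99.7% of the peaks and above the RAB20 promoter peak of 42. A second peak in the same intron reached 51 and another 30. RAB3D likewise had a higher peak, 51, in the 3′ UTR of its last exon than the 33 at its promoter. RAB27A held 5 intronic peaks of 17 to 30, of which 3 exceeded the 19 of its promoter. RAB37 held a further peak of 37 in intron 3, and the upstream part of its gene model contains the CD300LF promoter, with peaks of 45 and 21. RAB31, a RAB of the early endosome and Golgi, had no peak at its start but 3 peaks of 16 to 19 in its introns, and RAB11FIP4 had 3 of 20 to 33.

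**Figure D5:**
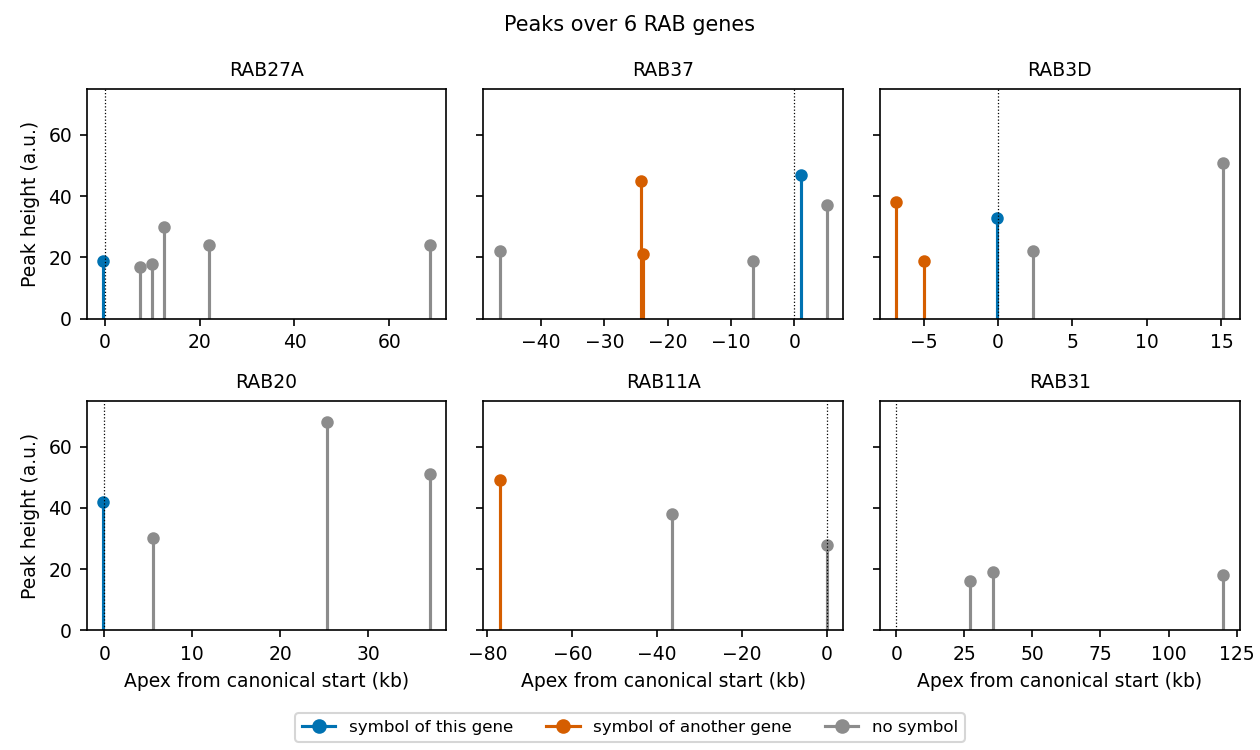
Peaks over RAB27A, RAB37, RAB3D, RAB20, RAB11A and RAB31, drawn as the distance of the apex from the canonical start (x axis, kb, positive downstream) and the peak height (y axis, arbitrary units). Blue peaks carry the symbol of the gene, orange ones that of another gene and grey ones none; at RAB20 the grey peak of 68 in intron 1 stands above the promoter peak of 42.

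Of the 36 RAB genes that no peak named, 30 also had no apex within 1 kb of a start. In 26 of these no peak overlapped the gene at all, and for 23 the nearest apex was over 10 kb from a start. No share of other genes was set beside these counts, which therefore describe the RAB genes only. The 30 genes included RAB25 and RAB17, which belong to epithelia, RAB3B and RAB3C, and RAB38 of melanosomes. Genes used in most cell types were among them too, such as RAB9A, RAB4A, RABEP1, RAB12 and RAB3GAP2. CpG content did not set them apart completely, since 22 of the 30 had a CpG-rich start, where 67.1% of all protein-coding genes did. Their median CpG ratio was 0.825, against 0.852 in the labelled genes.

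The letters around the apex of RAB peaks were those common in labelled promoters. Within 200 bp of the apex on both strands, GGGCGG (SP/KLF) occurred in 77.8% of RAB peaks and 76.2% of the background. CCAAT (NF-Y) was found in 42.2% and 44.2%, and GGAAGT (ETS) in 33.3% and 36.7%. TGANTCA (AP-1) was found in 6.67% and 7.41%, and TGTGGT (RUNX) in 8.89% (interval 3.51 to 20.7%) and 15.5%. AGGTCA, the core hexamer of nuclear receptors, was found in 7 of 45 RAB peaks (15.6%) and 16.6% of the background. Direct repeats, the type of site that RARA binds, were searched only as exact copies of AGGTCA with 0 to 5 bases between them. These occurred in 0 of 45 RAB peaks (interval up to 7.87%), and in at most 0.0702% of the background at any spacing. With exact repeats so rare in the background too, this search cannot show whether RAB peaks lack such sites. TGACGTCA (CRE) was in 0 of 45 and 3.14%. For every one of these the background share lay within the interval of the RAB peaks.

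CACGTG, the E-box, occurred in 5 of 45 RAB peaks (11.1%, interval 4.84 to 23.5%), against 12.6%. All 5 were also matches to the longer TCACGTG, which the MiT/TFE factors of lysosome genes recognise and which 6.77% of background peaks held, a share within the same interval. They lay at RAB24, RAB29, RAB21, RABGAP1 and RAB11FIP1. RAB24 and RAB29 belong to the lysosomal group, in which the RAB32, RAB7A and RABEPK peaks and the second RAB24 peak held no match. RAB21, RABGAP1 and RAB11FIP1 belong to other groups. The first 4 are shown, on GRCh37 and 5′ to 3′ on the gene's strand, with capitals for the TCACGTG match on either strand. RAB24 lies at chr5:176730733-176730761 (minus), RAB29 at chr1:205744574-205744602 (minus), RAB21 at chr12:72148611-72148639 (plus) and RABGAP1 at chr9:125703252-125703280 (plus).
RAB24: ggcgcccgcgcCACGTGAccttgcggccc
RAB29: aggcaaccctgCACGTGAcgcttgcggag
RAB21: ggcaccggcgcTCACGTGAcccgaggtgt
RABGAP1: gaagtcgctcTCACGTGAgtaaaggggtg

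At RAB24 the E-box runs into the reverse complement of AGGTCA, and the 8 letters at RAB21 and RABGAP1 read the same on both strands. All 4 matches lay within 77 bp of the apex.

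Of the AGGTCA matches, the one nearest to a high peak was at RAB37, 64 bp from its apex in intron 1 (chr17:72734570-72734635, plus strand of GRCh37), and it is shown because RAB37 had the widest RAB peak. At RAB5B, the highest, TGANTCA was found once within 200 bp of the apex (chr12:56367493-56367559, plus). Capitals mark the match.
RAB37: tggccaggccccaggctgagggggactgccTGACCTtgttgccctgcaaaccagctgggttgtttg
RAB5B: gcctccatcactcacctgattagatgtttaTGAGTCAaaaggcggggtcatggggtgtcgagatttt

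The other AGGTCA matches were at RAB29, at both RAB24 peaks, at RAB11FIP2, at RABEP2 and at the narrow RAB40C peak, whose heights ran from 16 to 26.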

How the data were processed

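Upstream, per the study's methods and the submitters' processing notes, Trimmomatic, Bowtie2 (hg19) and Samtools were used for trimming, alignment and duplicate removal. Peaks came from SEACR with the paired control as background and its norm and union settings, and those with IDR below 0.05 over 2 replicates were kept. The list names no sample and was taken as that of induced cells with the PML::RARA antibody from its name and its number of peaks. The authors deposited 2 whole-number columns of signal per peak, and from the values one is the largest signal within the peak (height) and the other the total over it. Whether the deposited signal is from 1 replicate or pooled reads, and in what scale, is not given in the sources used here. Versions of these tools are not given there either.

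The apex was taken as the midpoint of the interval of largest signal. Distances and gene structures came from GENCODE release 44 on GRCh37, sequences from the GRCh37 assembly. All 41 RAB symbols matched GENCODE. The RAB genes, role groups and motifs were chosen with earlier results of these data known. Named were the highest, widest and lowest RAB peaks, genes with several peaks, the highest of each role, marker RABs, and genes whose label and start site disagree; the remaining members follow by role. Peaks are not replicates, so shares and medians are given without tests. The result of 1 comparison list is not reported here. The share at or above a median was tested on peaks drawn from the list, in part with simulated heights. Merging and the motif search were tested on made-up data. The count of RAB genes with a peak was not tested in this way. Alternatives covered merging, thresholds, gene definitions, and classes of width or height. Analyses used Python 3.11.15, pandas 2.3.3, scipy 1.17.1 and matplotlib 3.10.9.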

Additional observations from a re-analysis of the deposited data

How the results depend on the processing

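Of 26 alternatives over 5 results, 22 left the value close to that reported, the shares within the 95% intervals of the main values. These limits are lenient. The interval for height ran from 39.1 to 67.1%. Counts were held to a limit on their ratio, under which 32 genes, the GTPases alone, passed as close to 41. Keeping peaks from the median height of the list upwards, which shortens it by construction, left 26 labelled RAB peaks and 24 RAB genes, or 31.2% of annotated RAB genes, where the background fell to 17.5%. Among regulators and effectors alone, 36.4% of 11 peaks reached the background median width. The share of RAB peaks at or above the median height was 45.5 to 60.0% under its 7 alternatives. The alternatives by CpG-rich starts, RefSeq genes, label or start site together, GTPases alone for the share of genes, and without chromosome 19 were chosen after seeing the data. No paired analysis was possible because the deposited peaks carry a single value each and none for a given replicate, and neither replicate could be left out.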
